A study of Mus musculus with 64 samples.

Results

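Autosomal gene expression was compared between adult mouse livers labelled male and female. The samples were the 24 libraries with the stage label adult liver, of 64 in the series, 12 with gender label M and 12 with gender label F. All carried the strain label C57BL/6, with 1 total RNA library per sample and no treatment or mutation in the labels, so gender was the one stated difference between the groups. Each library held the number of reads assigned to each of 23338 genes. Of these, 23094 could be placed on the mouse genome and 22053 lay on autosomes. A total of 10372 genes on all chromosomes had enough reads to be tested, of which 10024 were autosomal.

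Many liver genes differ between the sexes because the pituitary releases growth hormone differently: in separated pulses in male rodents and more evenly in females. The hormone acts through its receptor, the kinase JAK2 and the transcription factors STAT5A and STAT5B. BCL6 and CUX2 are repressors that are known from male and female liver, respectively. Enzymes of drug and steroid metabolism, carriers and pheromone-binding proteins are well-known examples of genes under this control. The liver also holds resident macrophages (Kupffer cells), endothelial cells and stellate cells beside its hepatocytes, and total RNA measures their sum.

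Male libraries held 1608848 to 4757610 reads on genes (median 3471725) and female libraries 1567583 to 3043818 (median 2605934). A level of 3 reads corresponded to between 0.631 and 1.86 CPM (reads on genes, scaled to the same library total) in males and between 0.986 and 1.91 CPM in females. The Y-linked genes and Xist matched the gender label in 12 of 12 male and 12 of 12 female libraries. Reads outside genes made up 28.0% to 35.2% of counted reads in males and 25.7% to 36.6% in females. Reads that did not align uniquely numbered 72.9 to 157 per 100 counted reads in males and 48.6 to 76.0 in females, so this measure moved with the gender label almost without overlap, and its part in the results below could be tested only by a covariate that nearly repeats the label. Which livers shared a sequencing lane is not given in the sources used here, so a lane effect that followed gender cannot be told apart from gender. The labels do not say that each library came from a separate mouse, and p-values measure the spread between these libraries.

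Both enzymes chosen as markers separated the groups. Cyp2d9, a cytochrome P450 of male mouse liver that hydroxylates steroids (chr15:82433437-82456845), had 1157 CPM in the lowest male liver, a median of 1396 and 1919 in the highest. The female livers had between 12.4 and 48.04 CPM with a median of 35.3, a log2 (male/female) of 5.37 (standard error (SE) 0.145, edgeR adjusted p = 8.94e-21). Cyp2a4, a steroid hydroxylase of female liver (chr7:26307169-26315088), had between 643 and 1203 CPM in females with a median of 895. In males it had 13 reads in all and at most 1.15 CPM, a log2 (male/female) of -11.13 (SE 0.203, adjusted p = 3.05e-26). Neither gene had a male liver within the range of the female livers. Cyp2a4 closely resembles Cyp2a5, and reads aligned to both places were not counted, so the level of either may be too low.

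A gene was called sex-biased when its log2 (male/female) lay beyond 0.5 or -0.5 with a Benjamini-Hochberg adjusted p below 0.1. By these thresholds 302 autosomal genes were male-biased, 3.01% of those tested, and 635 were female-biased, 6.33% of those tested (9.35% in either direction). In 130 genes (1.3%) every male liver was above every female liver, and in 150 genes (1.5%) the reverse held. The log2 (male/female) of the median tested autosomal gene was 0.00. Among the 6 male and 6 female livers with under 30% of reads outside genes, 442 genes were male-biased and 730 female-biased. The 6 male and 6 female livers at or above 30% gave 244 and 435. Both directions were therefore present within each set, with fewer calls in the second. Apart from the markers, the smallest adjusted p-values among male-biased genes belonged to Gstp1, Ttc39c and Cyp4a12b, and among female-biased genes to Slc22a26 and Nt5e. Ttc39c had 400.2 to 671 CPM in males and 86.6 to 137 CPM in females, for a log2 (male/female) of 2.32 (SE 0.0774, adjusted p = 1.15e-21). Nt5e, which encodes the ecto-enzyme that converts extracellular AMP to adenosine, had 10.7 to 19.6 CPM in males and 114.7 to 208.5 CPM in females, for a log2 (male/female) of -3.38 (SE 0.108, adjusted p = 1.08e-21).

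Classes of enzymes, transporters, immune genes and regulators were then counted in the same fit. Of 279 tested enzyme genes, 30 (10.8%) were male-biased and 68 (24.4%) female-biased, with a median log2 (male/female) of -0.17. Of 222 transporter genes, 14 (6.31%) and 25 (11.3%) were called, with a median of -0.01. Of 180 immune genes, 10 (5.56%) and 62 (34.4%) were called, with a median of -0.36. Of 479 regulator genes, 19 (3.97%) and 25 (5.22%) were called, with a median of -0.02. The pooled share of called regulators was thus close to the background of all autosomal genes, and the share of female-biased enzymes and immune genes was above it. Members that had too few reads for a test numbered 89 enzymes, 186 transporters, 204 immune genes and 353 regulators. Of the 937 called genes, 276 belonged to at least 1 of the lists and 661 to none. The plot of shares called sets each class beside the background.

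**Figure D1:**
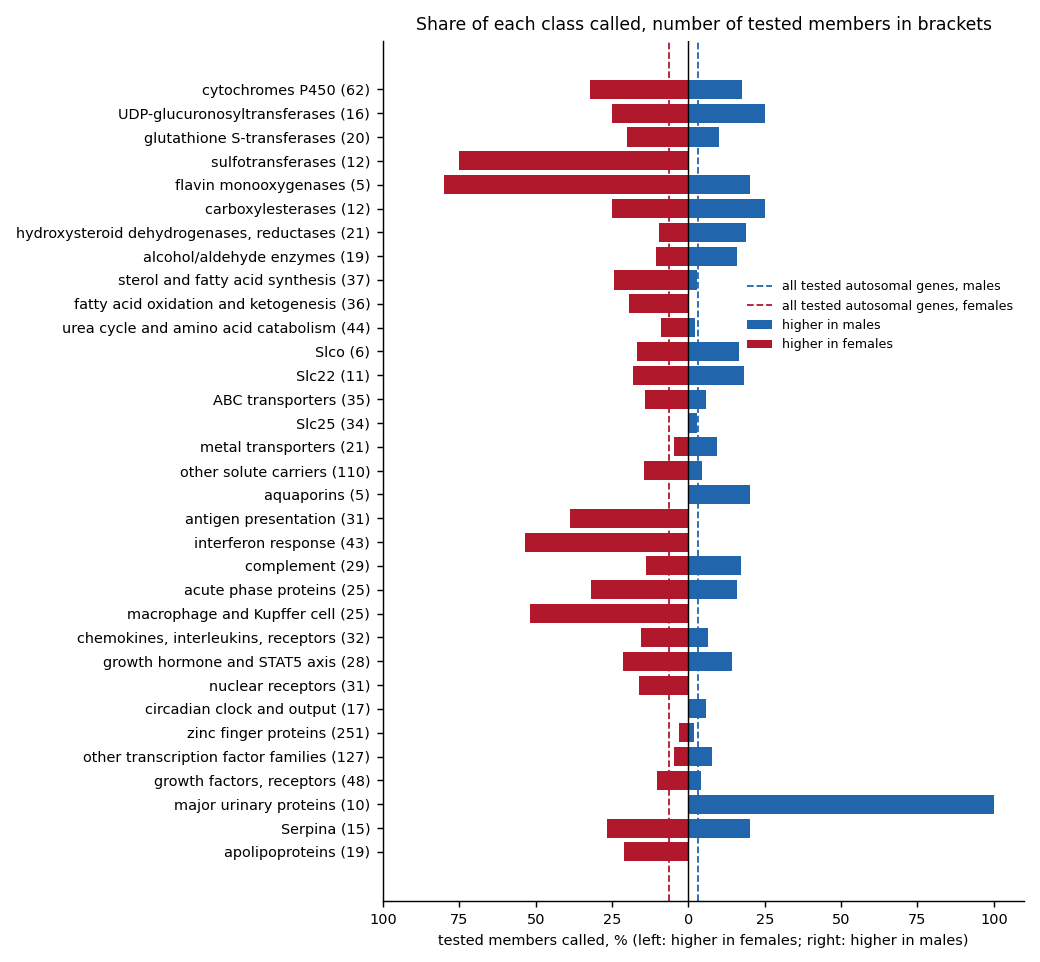
Share of tested members called female-biased (red, to the left) and male-biased (blue, to the right) in percent for each class, with the number of tested members in brackets. Dashed lines give the shares of all tested autosomal genes, 6.33% and 3.01%. Sulfotransferases and interferon response genes have red bars with no blue bar, and the major urinary proteins a blue bar with no red bar.

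Cytochromes P450, the monooxygenases that oxidize drugs, steroids and fatty acids, were called in both directions. Of 62 tested, 11 were male-biased (17.7%) and 20 female-biased (32.3%), against 3.01% and 6.33% of all tested autosomal genes. In 18 genes every female liver was above every male liver, which held for 1.5% of all tested autosomal genes. Cyp4a12b, a fatty acid hydroxylase, had 21.8 to 48.2 CPM in males (1117 reads) and 1 read over the 12 females. The ratio of the pooled shares was 869, with a 95% exact Clopper-Pearson interval of 156 to 3.43e+04 that covers counting error only, and reads shared with its near copy Cyp4a12a were not counted. Cyp2c69 had 721 to 1346 CPM in females and 0 to 4.41 CPM in males, a log2 (male/female) of -9.27 (SE 0.237, adjusted p = 3.06e-20). The male and female ranges were far apart for both genes. Among enzymes of bile acid synthesis, chosen after their values were seen, Cyp7b1 of the oxysterol branch was male-biased, with a log2 (male/female) of 2.82 (SE 0.18, adjusted p = 1.07e-11). Cyp7a1, which carries out the rate-limiting step of the classical pathway, was female-biased at -1.30 (SE 0.254, adjusted p = 0.000483). Its groups overlapped, with 34.7 to 168 CPM in males and 118 to 612 CPM in females.

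Sulfotransferases, which attach sulfate to steroids, bile acids and drugs, were not called in the male direction. Of 12 tested members (including Papss2, which makes the sulfate donor), 9 were female-biased and 0 male-biased, and the median log2 (male/female) was -1.20. At an unadjusted p under 0.05 in edgeR, 2 members were male-biased, and DESeq2 called 12 of 18 female-biased and 0 male-biased. Sult3a1 (chr10:33857721-33879532) had 166 to 480 CPM in females and no read in any male liver. Set against the level of 3 reads over all males, it was at least 3854-fold higher in females. Papss2 had 153 to 243 CPM in males and 359.9 to 547 CPM in females, for a log2 (male/female) of -1.22 (SE 0.0771, adjusted p = 3.31e-14). Sult1a1, the phenol sulfotransferase, had a log2 (male/female) of -1.18 (SE 0.0939, adjusted p = 3.16e-11). In both genes the ranges of the groups did not overlap.

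All 5 tested flavin monooxygenases, which oxidize nitrogen and sulfur atoms of drugs, were called, 4 of them female-biased (80.0%, against a background of 6.33%). Fmo1 had 115 to 146 CPM in males and 266 to 401 CPM in females, for a log2 (male/female) of -1.29 (SE 0.0578, adjusted p = 3.37e-18). Fmo2 had 6.32 to 19.04 CPM in males and 38.6 to 92.0 CPM in females, for a log2 (male/female) of -2.60 (SE 0.146, adjusted p = 1.95e-14). Fmo5 was the male-biased member, at 0.71 (SE 0.0857, adjusted p = 1.17e-07), with overlapping groups. The median of the flavin monooxygenases was -1.58. That of the sulfotransferases was -1.20. The sulfotransferase genes lacking reads in males lie below this median even at their bounds, so their fitted size cannot affect it.

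The other conjugating enzymes were divided. Of 16 UDP-glucuronosyltransferases, 4 were male-biased and 4 female-biased. Ugt2b1 had 728 to 1128 CPM in males and 293 to 457 CPM in females (log2 (male/female) 1.22, SE 0.0802, adjusted p = 8.08e-14), and Ugt2b38 was also male-biased at 3.65. Ugt1a1, the bilirubin glucuronosyltransferase, was female-biased at -0.75 (SE 0.0578, adjusted p = 4.43e-12), as was Ugt1a9 at -1.64. The Ugt1a genes share exons, so their reads may be split between them. Of 20 glutathione S-transferases, 2 were male-biased and 4 female-biased. Gstp1 (chr19:4035407-4037985) had 755 to 1149 CPM in males and 87.7 to 166 CPM in females, a 7.97-fold difference (SE of the log2 value 0.0942, adjusted p = 1.15e-21). Its near copy Gstp2 was male-biased at 2.04, and Mgst3 and Gsto1 were female-biased at -1.27 and -0.53.

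Steroid, alcohol and ester metabolism also ran in both directions. Of 21 hydroxysteroid dehydrogenases and steroid reductases, 4 were male-biased and 2 female-biased. Hsd3b5 had 291 to 461 CPM in males and 4.58 to 44.8 CPM in females (log2 (male/female) 4.50, SE 0.272, adjusted p = 5.99e-12). Srd5a1, the reductase that acts on testosterone, was male-biased at 1.25 (SE 0.0894, adjusted p = 7.91e-13), while Akr1d1 of bile acid synthesis and Hsd17b6 were female-biased at -0.80 and -0.96. Of 19 alcohol and aldehyde enzymes, 3 were male-biased (15.8%) and 2 female-biased (10.5%). The aldehyde oxidases Aox3 and Aox1, neighbours on chromosome 1, were both male-biased, at 1.78 and 1.00, with no overlap between the groups. Adh1 and Aldh1b1 were female-biased at -0.56 and -1.30. Of 12 carboxylesterases 3 were male-biased, with Ces3a at 0.91 and Ces1e at 0.61, and 3 were female-biased, with Ces1c at -0.80 and Ces1b at -0.54. Hsd17b6 and Ces1b lost their calls with not uniquely aligned reads as a covariate, and Ces1b also in the livers at or above 30% of reads outside genes.

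Lipid genes were called in the female direction at a higher share than the background of 6.33%, and amino acid genes at a share near it. Of 37 genes of sterol and fatty acid synthesis, 9 were female-biased (24.3%) and 1 male-biased, and 31 had a log2 (male/female) below 0. The male-biased gene was Elovl3, an elongase of very long fatty acids, with 229 to 874 CPM in males and 1.204 to 17.9 CPM in females (log2 (male/female) 5.57, SE 0.326, adjusted p = 3.34e-12). Pnpla3, a lipase of lipid droplets, was female-biased at -3.46 (SE 0.498, adjusted p = 1.08e-05) with overlapping groups, as was the elongase Elovl5 at -0.56. Hmgcs1, an early enzyme of the cholesterol pathway that was chosen after its values were seen, had a log2 value of -0.78 (adjusted p = 0.00974) with overlapping groups. Of 36 genes of fatty acid oxidation and ketogenesis, 7 were female-biased (19.4%) and 0 male-biased, with 5 male-biased at an unadjusted p under 0.05 in edgeR and 0 by DESeq2. Acot3 had 0.631 to 9.84 CPM in males and 32.5 to 198 CPM in females (log2 (male/female) -4.74, SE 0.375, adjusted p = 8.37e-10), and its neighbour Acot4 was at -1.57. Of 44 genes of the urea cycle and amino acid catabolism, 4 were female-biased (9.09%), with Hpd of tyrosine breakdown at -0.64 and the methionine adenosyltransferase Mat1a at -0.73, and Tdo2, the tryptophan dioxygenase, was male-biased at 0.55. Tdo2 and Elovl5 lost their calls with not uniquely aligned reads as a covariate, Tdo2 also in the livers at or above 30% of reads outside genes and Elovl5 in those under 30%.

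**Figure D2:**
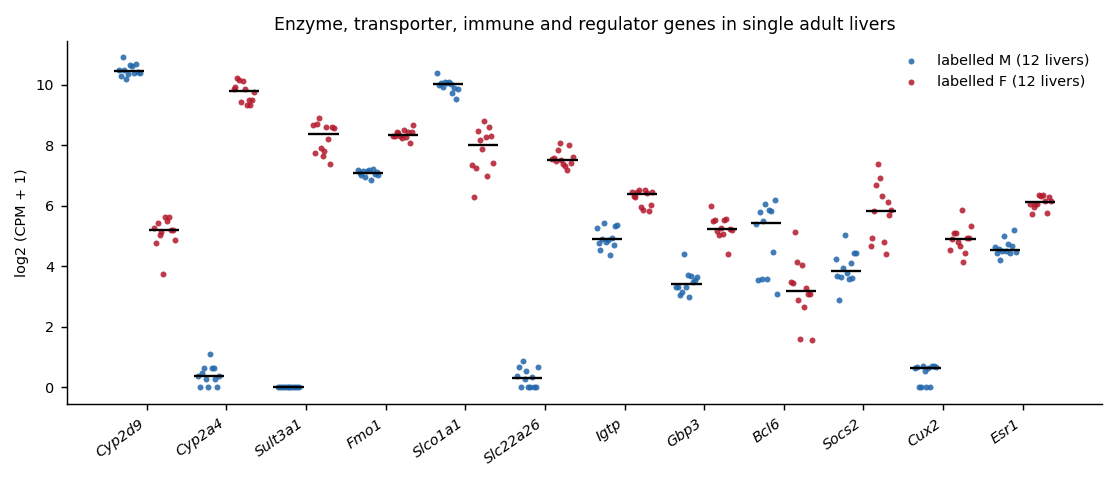
Level of 12 genes in each adult liver as log2 (CPM + 1), males in blue and females in red, 12 livers each, with the median as a black line. Cyp2d9, Cyp2a4, Sult3a1, Fmo1, Slc22a26, Igtp, Cux2 and Esr1 show no overlap between the groups, and in Bcl6 and Socs2 the groups overlap.

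Among transporters, the largest fitted differences were in carriers of organic ions. Slc22a26 (chr19:7781041-7802667), of the organic anion transporter family, had 145 to 269.7 CPM in females and 10 reads in all over the males, a log2 (male/female) of -9.28 (SE 0.199, adjusted p = 1.32e-25). Slc22a27, its neighbour, was female-biased at -5.90. Slc22a28 on the same chromosome had 29.7 to 46.5 CPM in males and 1.33 to 6.81 CPM in females, for a log2 (male/female) of 3.22 (SE 0.157, adjusted p = 2.81e-17). These 3 genes are close relatives in sequence, and reads that aligned to more than 1 of them were not counted. Slc22a7, an organic anion exchanger, was the other male-biased member of 11 tested, at 1.03 with overlapping groups, and lost its call with not uniquely aligned reads as a covariate.

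The 2 called of 6 tested Slco genes, which take up bile salts and hormone conjugates, were Slco1a1 and Slco1a4. Each direction thus held 16.7% of the tested members, against the background of 3.01% and 6.33%. Slco1a1 (chr6:141907282-141946962) had 737 to 1324 CPM in males and 76.9 to 449 CPM in females (log2 (male/female) 2.01, SE 0.219, adjusted p = 1.93e-07). Slco1a4 had 52.4 to 146 CPM in males and 209 to 417 CPM in females (log2 (male/female) -1.57, SE 0.159, adjusted p = 4.04e-08). The male livers were all higher than the female livers for the first gene and all lower for the second.

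Of 35 ABC transporters, 2 were male-biased (5.71%) and 5 female-biased (14.3%), against the background of 3.01% and 6.33%. Abcg2, an efflux pump for drugs and urate, had 137 to 236 CPM in males and 38.9 to 78.5 CPM in females (log2 (male/female) 1.37, SE 0.0886, adjusted p = 9.25e-14), and Abcb10 of the mitochondrial inner membrane was male-biased at 0.88. Abcd2, which carries very long-chain fatty acids into peroxisomes, had 4.52 to 41.6 CPM in males and 152 to 261 CPM in females (log2 (male/female) -3.40, SE 0.224, adjusted p = 2.50e-11). The drug efflux pump Abcb1a was female-biased at -1.96.

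Among 110 other solute carriers, 5 were male-biased (4.55%) and 16 female-biased (14.5%), against the background of 3.01% and 6.33%. The magnesium carrier Slc41a2 and the glutamate carrier Slc17a8 were male-biased at 2.15 and 1.89, and Slc16a5 and Slc16a12 of the monocarboxylate carrier family were female-biased at -2.68 and -0.55. The aquaporin Aqp4, a water channel, was male-biased at 2.80 (SE 0.265, adjusted p = 6.29e-10), the 1 call among 5 aquaporins. Of 34 mitochondrial carriers 1 was called, the pyrimidine nucleotide carrier Slc25a33 at 0.78, a male-biased share of 2.94% that was near the background. Of 21 metal transporters 3 were called, 2 male-biased (9.52%) and 1 female-biased (4.76%). The iron carrier Slc11a2 was at 0.58, the zinc carrier Slc39a10 at 0.52 and Slc11a1, an ion carrier of phagocytes, at -0.52. The last 2 lay at the fold threshold and lost their call when 1 of several livers was left out. Slc25a33, Slc16a12 and Slc11a1 lost their calls with not uniquely aligned reads as a covariate, Slc25a33 and Slc11a1 also in the livers at or above 30% of reads outside genes, and Slc16a12 and Slc39a10 in those under 30%.

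Most called genes of the immune class were female-biased. Of 43 tested interferon response genes, 23 were female-biased (53.5%, against 6.33% of all tested autosomal genes) and 0 male-biased. In 42 the log2 (male/female) was below 0, and the median of the class was -0.63. In edgeR 33 were higher in females and 0 in males at an unadjusted p under 0.05, and DESeq2 called 25 of 48 female-biased and 0 male-biased. Of 25 macrophage and Kupffer cell genes, 13 were female-biased (52.0%) and 0 male-biased, with a median of -0.51, and all 25 were below 0. Of 31 genes in the antigen presentation list, 12 were female-biased (38.7%) and 0 male-biased, with a median of -0.36. The list also holds H2-Ke2 (now Pfdn6) and H2-Ke6, which have H2 symbols but no known part in antigen presentation. They were not called, at 0.17 and 0.12. At an unadjusted p under 0.05 in edgeR, 1 antigen presentation gene and 0 macrophage genes were higher in males, and DESeq2 called 0 of either male-biased. The lists share a few members, such as Ctss.

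Igtp, a GTPase induced by interferon gamma that acts against intracellular parasites (chr11:58199556-58207591), had 19.8 to 42.1 CPM in males (median 28.6) and 55.5 to 90.8 CPM in females (median 82.4). Its log2 (male/female) was -1.32 (SE 0.116, adjusted p = 2.97e-10), and every female liver was above every male liver. Gbp3, a guanylate-binding protein of the same response (chr3:142560026-142573209), had 6.89 to 20.3 CPM in males and 20.1 to 61.8 CPM in females, for a log2 (male/female) of -1.87 (SE 0.165, adjusted p = 5.20e-10). The ranges of Gbp3 touched at their ends.

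The upstream sequences of several of these genes are shown because the interferon-stimulated response element, the DNA sequence bound by the factors that interferons activate, can be read in them. RefSeq promoter windows (GRCm38.p6, 250 bases before and 50 after each gene's start) were found by symbol for 29 of the 43 tested interferon genes and for 7976 of the 10024 tested autosomal genes. The letters GAAA, any 2 bases and GAAA were searched on both strands. They occurred in 17 of the 29 windows (58.6%), in 245 of the 7976 (3.07%) and in 3.5% of all 25748 autosomal windows. Among the female-biased interferon genes with a window, 11 of 16 held them (68.8%), and of all female-biased genes 7.92%, against 4.68% of the male-biased genes. The list was built from genes known to respond to interferon, so the letters describe the list and say nothing of binding in these livers. The stretches below run 5′ to 3′ along the gene's strand, with these letters or their reverse complement in capitals. In Igtp, Irgm2 and Tgtp1 the capitals also mark a match to TTCNNNGAA, the form of a STAT site, which does not overlap the other match. These genes were chosen after the matches were seen.
Igtp (chr11:58199496-58199546, plus strand): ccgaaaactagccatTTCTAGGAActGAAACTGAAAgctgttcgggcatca
Irgm2 (chr11:58214887-58214937, plus strand): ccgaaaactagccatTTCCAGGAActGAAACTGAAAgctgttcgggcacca
Tgtp1 (chr11:48992299-48992349, minus strand): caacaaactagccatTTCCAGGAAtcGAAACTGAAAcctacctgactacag
Gbp3 (chr3:142559984-142560029, plus strand): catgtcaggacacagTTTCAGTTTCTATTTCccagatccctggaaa
Gbp2 (chr3:142620589-142620628, plus strand): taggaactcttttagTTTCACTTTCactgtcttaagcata
Ifit3 (chr19:34583358-34583431, plus strand): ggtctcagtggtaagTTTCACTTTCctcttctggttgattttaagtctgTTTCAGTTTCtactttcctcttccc

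The stretches of Igtp and Irgm2, neighbouring GTPase genes, were identical at 49 of 51 positions, and those of Igtp and Tgtp1 at 34 of 51. Irgm2 had a log2 (male/female) of -0.77 (adjusted p = 1.17e-05), Tgtp1 of -1.31 (adjusted p = 9.80e-06), Gbp2 of -1.35 (adjusted p = 6.51e-07) and Ifit3 of -1.09 (adjusted p = 3.25e-06). Each of these 4 genes was higher in females with overlapping groups.

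In the macrophage list, C1qc, a chain of the complement recognition molecule C1q that macrophages make, had 23.5 to 42.9 CPM in males and 38.9 to 72.6 CPM in females (log2 (male/female) -0.62, SE 0.0976, adjusted p = 1.01e-05). Lyz2, the lysozyme of myeloid cells, was at -0.68 (SE 0.109, adjusted p = 2.00e-05) and overlapped in the same way. Of the antigen presentation genes, Tapbp, which loads peptides onto class I molecules, was at -0.56 (SE 0.0623, adjusted p = 1.76e-08) and the class I gene H2-T23 at -0.60 (SE 0.0762, adjusted p = 2.05e-07). The class I genes resemble one another, and reads may be lost or split between them. These differences were modest, and in each of the 4 genes the highest male livers reached the female range.

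In total RNA, fewer cells of a type and less RNA per cell cannot be told apart. The summed level of the macrophage list was 779 to 1260 CPM in males and 987 to 1806 in females, and that of the interferon list 1487 to 2339 and 2063 to 3049. Other cell types moved the same way. The 10 sinusoidal endothelial markers summed to 536 to 611 CPM in males and 619 to 746 in females, without overlap, and all 10 had a log2 (male/female) below 0, although 1 of them was called (Lyve1). The 10 stellate cell markers summed to 530.2 to 814 and 719 to 1022 CPM, all 10 below 0. None of them was called by edgeR (4 at an unadjusted p under 0.05) or by DESeq2. The 7 hepatocyte markers summed to 32930 to 45950 and 43340 to 55100 CPM, with Ahsg called. The sums of hepatocyte, endothelial and stellate markers were thus higher in females, as the immune sums were, with 5 of the 7 hepatocyte markers below 0. Their part in the immune result was not tested. None of the 32 lymphocyte genes had enough reads for a test, 24 had a mean under 1 CPM, and their sum was 7.68 to 24.6 CPM in males and 20.5 to 40.9 in females. The 8 neutrophil markers summed to at most 7.57 CPM, and 6 of 9 acinar markers had no read. The acinar sum lay toward males, 30.8 to 52.8 CPM against 12.04 to 31.8 in females, nearly all of it from Cela1 (log2 (male/female) 0.78, adjusted p = 6.32e-06). The 6 adipocyte markers summed to 99.9 CPM in female replicate 13 and to at most 17.04 CPM in any other liver. Without this liver, 22 of 42 interferon and 12 of 25 macrophage genes were female-biased.

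The immune counts also differed between sets of livers, which were formed after the data were seen. Among livers with under 30% of reads outside genes, 28 interferon, 21 macrophage and 17 antigen presentation genes were female-biased, with medians of -0.75, -0.77 and -0.73. Among livers at or above 30% the counts were 16, 2 and 3, with medians of -0.42, -0.21 and -0.22. The background of female-biased genes was 7.21% in the first set and 4.61% in the second. C1qc, Lyz2 and H2-T23 lost their calls in the second set. The female livers of the first set were replicates 13 to 18 and those of the second replicates 19 to 24, while male replicate numbers were mixed. A difference between these blocks of female livers therefore cannot be told apart from the share of reads outside genes. By edgeR, 0 interferon genes were male-biased in either set. With not uniquely aligned reads as a covariate 14 of 43 interferon, 5 of 25 macrophage and 6 of 31 antigen presentation genes were female-biased. Over all 10024 tested autosomal genes the female-biased calls fell as well, from 635 to 334.

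**Figure D3:**
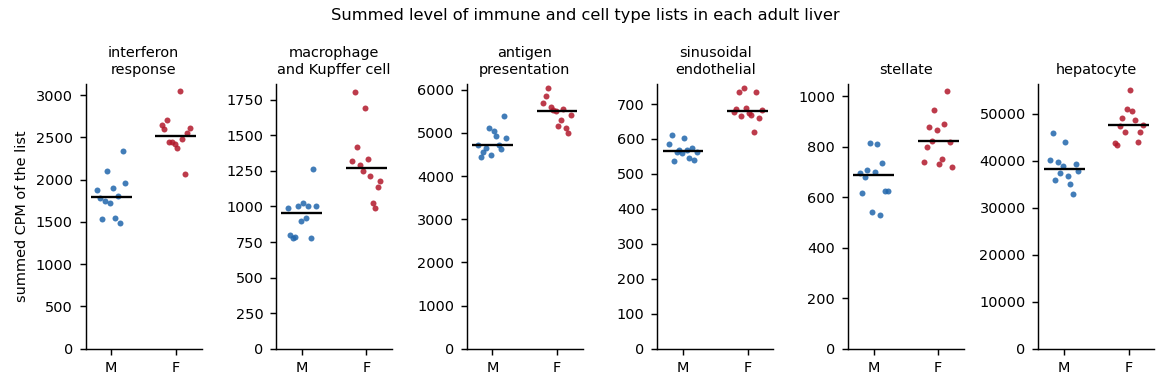
Summed CPM of the members of 6 lists in each adult liver, 12 males in blue and 12 females in red, with medians as black lines and each axis starting at 0. The endothelial sums do not overlap, 536 to 611 CPM in males and 619 to 746 in females, while the interferon and macrophage sums overlap at their ends.

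Complement, by contrast, was called in both directions, with 5 male-biased (17.2%) and 4 female-biased (13.8%) genes of 29 and a median of 0.11. The background was 3.01% and 6.33%. The male-biased genes included 4 of those whose products join in the membrane pore, while C8g, the third chain of C8, was at 0.01 (adjusted p = 0.941) and Hc, which encodes C5, at 0.42 under the fold threshold. C6 (chr15:4727175-4814967) had 272.5 to 444 CPM in males and at most 49.8 CPM in females (log2 (male/female) 3.36, SE 0.109, adjusted p = 1.60e-20). C8a had 998 to 1427 CPM in males and 233 to 502 CPM in females (log2 (male/female) 1.84, SE 0.103, adjusted p = 1.97e-14), and C8b and C9, named after their values were seen, were at 1.29 and 1.25. The female-biased genes included the central component C3, with 5279 to 7562 CPM in males and 9139 to 12030 in females (log2 (male/female) -0.72, SE 0.0567, adjusted p = 6.95e-12), and the mannose-binding lectin Mbl2 at -1.11. C4a was male-biased as well, but it shares most of its sequence with C4b.

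Acute phase genes, which the liver makes in inflammation, were divided into 4 male-biased and 8 female-biased of 25. Male replicate 11 stood apart from the other males, with a summed level of 36610 CPM against at most 26680, while 1 female liver reached 35830. Without it 3 genes were male-biased and 8 female-biased. Steap4, named after its values were seen, then fell from 0.62 to 0.36 and was not called (adjusted p = 0.178), and Saa1 was at 0.79 instead of 1.36. Hamp2, of the hepcidin family, had 0.574 to 12.9 CPM in males and 51.7 to 145 CPM in females (log2 (male/female) -4.23, SE 0.337, adjusted p = 9.58e-10). Serpina3m was female-biased at -1.09, and Saa4 and the interleukin 1 receptor Il1r1 were male-biased at 0.69 and 0.81 with overlapping groups. Il1r1 was at -0.00 with not uniquely aligned reads as a covariate, so its male bias was not kept in that fit. Of 32 tested chemokine and interleukin genes, 2 were male-biased (6.25%), Il1r1 and its partner Il1rap at 0.65. The 5 female-biased genes (15.6%) included the chemokines Ccl9 at -0.67 and Cxcl9 at -0.92. Saa4 and Cxcl9 lost their calls with the same covariate.

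**Figure D4:**
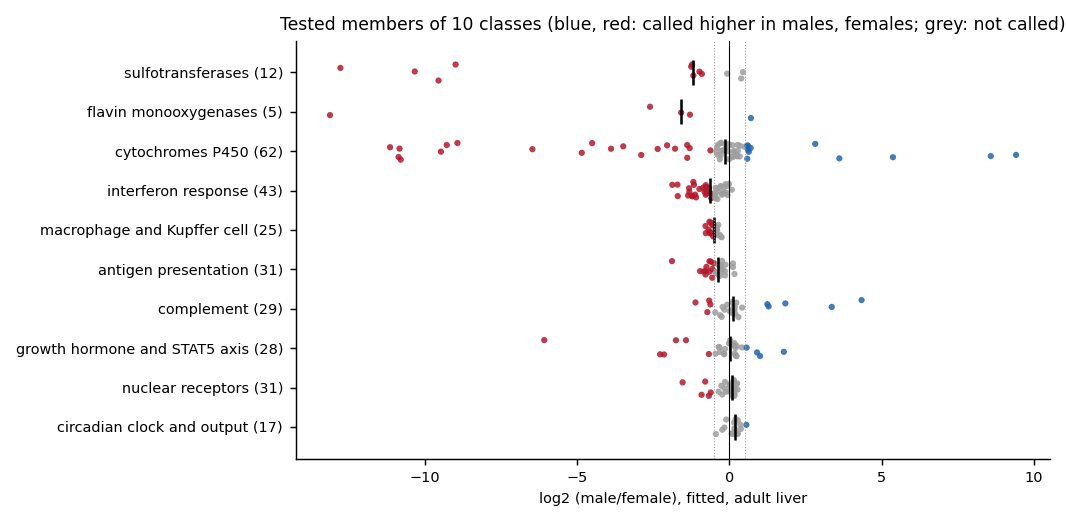
Fitted log2 (male/female) of each tested member of 10 classes in adult liver, with called members in blue (male-biased) and red (female-biased), others in grey, class medians as black lines and dotted lines at 0.5 and -0.5. Interferon response members lie to the left of 0 in 42 of 43 cases, and complement members spread to both sides.

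The regulator lists differed in their called shares, and over the whole class the zinc finger genes made up 251 of 479. In the growth hormone and STAT5 list, 4 of 28 tested members were male-biased (14.3%) and 6 female-biased (21.4%), above the background of 3.01% and 6.33%, and the median was 0.01. The list includes factors already known from male or female liver, such as Bcl6 and Cux2. Its called shares therefore depend on how it was built and describe these members only. The hormone receptor Ghr had 749 to 973 CPM in males and 555 to 800.4 CPM in females, for a log2 (male/female) of 0.25 (SE 0.0552, adjusted p = 0.000891) that did not reach the fold threshold. Jak2 was at -0.17 (adjusted p = 0.18), Stat5a at -0.32 (adjusted p = 0.0454) and Stat5b at -0.14 (adjusted p = 0.122), none of them called. Igf1, the main hormone product of the pathway in liver, was at -0.35 (95% interval -0.57 to -0.12, adjusted p = 0.0272), also under the fold threshold. Its binding partner Igfals was female-biased at -0.67 (SE 0.0753, adjusted p = 1.91e-08).

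The repressors of the pathway were called in opposite directions. Cux2 (chr5:121856366-122050102) had 16.7 to 56.8 CPM in females with a median of 29.1, and 15 reads in all over the males, a log2 (male/female) of -6.07 (SE 0.266, adjusted p = 3.99e-18). No male liver exceeded 0.631 CPM. Bcl6 had 7.49 to 71.3 CPM in males (median 42.4) and 1.964 to 34.0 CPM in females (median 8.16), a log2 (male/female) of 1.79 (SE 0.431, adjusted p = 0.0035). The male livers were thus widely spread for Bcl6 and reached into the female range. Trim24, a coregulator of nuclear receptors, had 15.7 to 50.6 CPM in males and 59.0 to 112 CPM in females (log2 (male/female) -1.75, SE 0.168, adjusted p = 1.21e-08). Tox was female-biased at -1.42.

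Genes that STAT5 induces and that inhibit it in turn varied strongly among livers. Socs2 had 6.40 to 31.6 CPM in males and 19.9 to 167 CPM in females (log2 (male/female) -2.14, SE 0.336, adjusted p = 4.02e-05). Cish had 0.631 to 34.6 CPM in males and 3.29 to 20.95 CPM in females and was not called (log2 (male/female) 0.21, 95% interval -0.79 to 1.21, adjusted p = 0.815), and without male replicate 12 it was at -0.10. Socs3 was male-biased at 1.01 (adjusted p = 0.0637), but its highest male liver had 52.7 CPM against a median of 11.8, and without male replicate 5 it was at 0.60 and not called (adjusted p = 0.17). The letters TTCNNNGAA were found in 4 of 23 windows of this list (17.4%) and in 6.82% of the windows of tested autosomal genes. The interferon list held them at a higher share, in 10 of 29 windows (34.5%). Both lists were built from known genes, and these letters say nothing of binding in these livers. The windows of the male-biased genes Bcl6 and Socs3 held them in these stretches, shown with the letters in capitals, and the window of the female-biased gene Igfals held them as well.
Bcl6 (chr16:23988947-23988985, minus strand): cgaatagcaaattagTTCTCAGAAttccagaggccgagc
Socs3 (chr11:117969497-117969535, minus strand): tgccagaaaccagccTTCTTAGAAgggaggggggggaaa

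The hepatocyte factors of the same list were mostly not called. Hnf4a was at 0.15 (adjusted p = 0.206), Cebpa at 0.17 (adjusted p = 0.167), Foxa2 at -0.01 (adjusted p = 0.986) and Foxa1 at 0.42 (adjusted p = 0.16). Foxa3 was male-biased at 0.57 (adjusted p = 0.0227) and lost the call without male replicate 6. Cebpb, a factor of the acute phase response, was male-biased at 0.91 (adjusted p = 0.00666) with 43.2 to 170.2 CPM in males and 32.8 to 77.5 CPM in females. With not uniquely aligned reads as a covariate Cebpb was at -0.13 and neither Bcl6 nor Foxa3 was called. Prlr, the prolactin receptor, had 42.8 to 138 CPM in males and 305 to 503 CPM in females (log2 (male/female) -2.27, SE 0.15, adjusted p = 1.35e-11), with no overlap.

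Of 31 nuclear receptors, 5 were female-biased (16.1%) and 0 male-biased, with a median of 0.09. At an unadjusted p under 0.05 in edgeR 3 were higher in males, and DESeq2 called 6 of 42 female-biased and 0 male-biased. Esr1, the estrogen receptor alpha (chr10:4611593-5005614), had 17.5 to 35.4 CPM in males and 52.4 to 81.4 CPM in females (log2 (male/female) -1.53, SE 0.095, adjusted p = 1.92e-14), and the groups did not overlap. The retinoic acid receptor Rarb was at -0.91 (SE 0.176, adjusted p = 0.000189) at levels of 3.49 to 17.8 CPM. Among 17 clock genes 1 was called, Per2 at 0.56. Of 251 zinc finger proteins, 5 were male-biased and 8 female-biased, 1.99% and 3.19%, under the background in both directions. Zfp445, which binds imprinted loci, had 201 to 352 CPM in males and 115 to 170.0 CPM in females (log2 (male/female) 0.95, SE 0.0875, adjusted p = 4.19e-10). Gm13152, now named Zfp982, was male-biased at 1.43, and Zfp820 and Zfp113 were female-biased at -1.04 and -0.76.

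Of 127 genes of other transcription factor families, 10 were male-biased (7.87%) and 6 female-biased (4.72%), against the background of 3.01% and 6.33%. The female-biased share was thus under the background. Hes6 at 0.93 and Cebpe at 0.68 were among the male-biased genes. Of 48 growth factors, binding proteins and receptors, 2 were male-biased (4.17%) and 5 female-biased (10.4%). The male-biased members were the receptors Egfr, with 1006 to 2269 CPM in males and 267 to 1328 CPM in females (log2 (male/female) 1.04, SE 0.253, adjusted p = 0.00378), and Fgfr1 at 1.21. The ranges of both receptors overlapped between the groups. Egfr, Per2, Rarb, Zfp113 and Zfp820 were not called with the covariate above, and Egfr also in the livers under 30% and Per2 and Cebpe in those at or above 30% of reads outside genes.

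Secreted liver proteins completed the classes. The 10 tested major urinary proteins, carriers of pheromones in urine, were all male-biased, with a median log2 (male/female) of 4.93 (14 of 18 by DESeq2). The other 10 of the 20 listed genes had too few uniquely aligned reads, and the family is nearly identical in sequence, so single genes are uncertain. Mup21 had 232 to 479 CPM in males and 7.39 to 16.9 CPM in females (log2 (male/female) 4.67, SE 0.14, adjusted p = 3.07e-20), and Mup14 had 568 to 1251 and 0 to 8.62 CPM. The groups did not overlap for either gene. Of 15 Serpina protease inhibitors, 3 were male-biased and 4 female-biased. Serpina1e, of the alpha-1-antitrypsin family, had 2657 to 5193 CPM in males and 31.5 to 3122 CPM in females with a median of 244, at 3.02 (SE 0.579, adjusted p = 0.000406). One female liver, replicate 18, stood apart, and without it the log2 (male/female) was 4.07. In the livers under 30% of reads outside genes Serpina1e was not called. Its relatives Serpina1a, Serpina1b, Serpina1c and Serpina1d were not called (0.06, -0.16, 0.32 and -0.25). Reads that aligned to more than 1 of these genes were not counted. Serpina12 was male-biased at 2.07 and Serpina6, the corticosteroid-binding globulin, female-biased at -1.47 (SE 0.151, adjusted p = 5.02e-08). Of 19 tested genes of the apolipoprotein list, 4 were female-biased (21.1%, against the background of 6.33%). The list also holds Apobec1 and Apoa1bp (now Naxe), which are not apolipoproteins and were not called. Apoa4 was at -1.18 and lost its call in the joint fit with fetal livers. Apoc3, at -0.51, lay at the fold threshold. It was not called without 1 of many livers, by DESeq2 or in that joint fit. DESeq2 called 1 of 32 genes of this list.

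Some called genes lay side by side. Of the 937 called genes, 234 were next to a tested gene called in the same direction, in 94 runs, of which 22 held at least 3 genes. The longest was the Mup cluster on chromosome 4 with 10 male-biased genes. On chromosome 7, Axl, Cyp2b10, Cyp2b13, Cyp2b9, Cyp2a4, Cyp2a5 and Cyp2a22 formed a run of 7 female-biased genes. Other female-biased runs were Acot2, Acot1, Acot4 and Acot3 on chromosome 12, and Cyp2c68, Cyp2c40, Cyp2c69 and Cyp2c37 on chromosome 19. Immune genes formed runs too, with Abcg3 and 5 Gbp genes on chromosome 5 and Ifit2, Ifit3 and Ifit1 within a run of 5 on chromosome 19. Male-biased runs included Hsd3b5, Hsd3b2 and Hsd3b3 on chromosome 3. Other runs joined genes of different families, such as Hao1, Tmx4 and Plcb1 on chromosome 2. How many runs arise without regard to position was not tested, and reads of neighbouring paralogs can be confused. By chromosome, the called share ranged from 5.06% of 257 tested genes on chromosome 18 to 11.9% of 395 on chromosome 19.

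The adult difference was set against that of fetal liver, the earlier liver stage of the series, in a joint fit of 48 livers (12 male and 12 female at each stage). Of 12530 autosomal genes, 668 (5.33%) had a log2 (male/female) that was higher by over 0.5 in adult liver and 1056 (8.43%) one that was lower by over 0.5, by the edgeR test of stage and gender interaction. Cyp2d9 was at 12.4 CPM in the median male and 13.6 CPM in the median female fetal liver, a log2 (male/female) of -0.04, against 5.39 in adult liver in the same fit. Cyp2a4 was at 0.14 in fetal and -11.21 in adult liver. Cux2 was read in both sexes at the fetal stage, with 31.8 to 62.5 CPM in fetal males and 25.1 to 38.4 CPM in fetal females. Trim24 was likewise at 44.1 to 58.0 and 44.7 to 61.3 CPM. Cish had the same log2 value at both stages to within 0.01 (interaction SE 0.468, adjusted p = 1), and the difference of Igf1, -0.42 (adjusted p = 0.0332), was under the fold threshold.

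By class, the interaction was called toward females in adult liver for 24 of 48 interferon genes, 8 of 28 macrophage genes and 3 of 33 antigen presentation genes. These are shares of 50%, 28.6% and 9.09% against the background of 8.43%, so the last was near it. The median log2 (male/female) of the interferon genes was -0.59 in adult and -0.07 in fetal liver. It was -1.57 and 0.20 for the flavin monooxygenases and -1.19 and -0.24 for the sulfotransferases. The share of reads outside genes in fetal livers was 39.9% to 49.0% for males and 34.1% to 38.1% for females, and the part of this difference in the comparison was not tested.

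**Figure D5:**
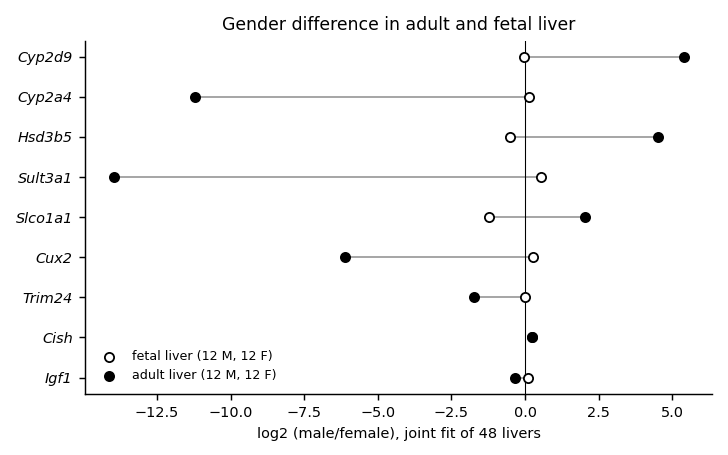
Log2 (male/female) of 9 genes in fetal liver (open circles) and adult liver (filled circles) from the joint fit of 48 livers. Cyp2d9 moves from -0.04 to 5.39 and Cux2 from 0.26 to -6.13, and the circles of Cish coincide.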

How the data were processed

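RNA-seq counts of 24 adult livers and, for the interaction, 24 fetal livers were used. The authors deposited raw counts per gene: reads from the TruSeq Stranded Total RNA kit were aligned to mm10 (GRCm38) with TopHat2 2.0.4, Bowtie2 2.1.0 and SAMtools 0.1.18 per the submitters' processing notes, duplicates were filtered with Picard, which can compress abundant transcripts, and reads were assigned with HTSeq, whose strand setting is not given in the sources used here. Reads with several alignments and 5 summary lines per library were left out. Positions came from GENCODE and RefSeq GRCm38, and promoter letters from RefSeq GRCm38.p6.

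Counts were normalized with TMM, filtered with filterByExpr and tested with edgeR 4.0.16 in R 4.3.3 by a robust quasi-likelihood F test, adjusted over all 10372 genes. The biological coefficient of variation was 0.146. SE is the absolute log2 over the square root of F. CPM of adult livers used TMM factors, while CPM of fetal livers and the 3-read floors used plain totals of reads on genes. Fitted log2 values of genes with almost no reads depend on edgeR's prior count. Read floors and intervals cover counting error only, since reads carried no molecular identifiers. On simulated data, 178 of 200 genes changed by a log2 of 0.7 and 196 of 200 changed by 1.0 were recovered, with 5 and 4 false calls. DESeq2 1.42.0 and the other alternatives are given at the end. Python 3.11.15 with pandas 2.3.3 made the summaries.

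The members, lists and tests were chosen with earlier results of these data known. Named genes were the markers, the 3 autosomal genes per direction with the smallest adjusted p, the 2 per list and direction, the growth hormone list and a fixed fetal panel, 122 in all. Others are marked as chosen after their values were seen, or are given as members of runs. Embryos and ES cells were not used here. Some items are not reported here.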

Additional observations from a re-analysis of the deposited data

Results flagged for a closer look

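The gender difference itself differed between adult and fetal liver, by the interaction test of edgeR over 48 livers, for 7 of the 9 genes compared. The difference of log2 (male/female), adult minus fetal, was 5.43 for Cyp2d9 (SE 0.231, adjusted p = 4.42e-24), 5.04 for Hsd3b5 (SE 0.72, adjusted p = 6.31e-07) and 3.23 for Slco1a1 (SE 0.812, adjusted p = 0.0025). It was -11.34 for Cyp2a4 (SE 0.398, adjusted p = 3.99e-27), -6.38 for Cux2 (SE 0.298, adjusted p = 4.56e-24) and -1.71 for Trim24 (SE 0.168, adjusted p = 2.17e-11). For Sult3a1 it was -14.49 (SE 3.01, adjusted p = 0.000464), a fitted value that rests on no read in adult males and on 5 and 3 reads in fetal males and females, so its size is not a bound. Fetal reads in males and females were also few for Hsd3b5 (36 and 57) and Slco1a1 (30 and 78). The median fetal female liver had 0.283 CPM of Slco1a1 and the highest 7.22 CPM. Its fetal log2 (male/female) was -1.21 (edgeR adjusted p = 0.259), against 2.03 in adult liver. The part of that highest liver in the difference was not tested. Over all autosomal genes tested, 668 differed toward males and 1056 toward females in adult liver.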

How the results depend on the processing

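No paired analysis was possible because male replicates are numbered 1 to 12 and female replicates 13 to 24, so the groups share no number. Counts below are male-biased then female-biased, against 302 and 635 of all autosomal genes, 30 and 68 enzymes, 14 and 25 transporters, 10 and 62 immune genes and 19 and 25 regulators; the cause of each change was not tested unless the alternative itself sets it.

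Without the fold threshold the counts were 1523 and 1753 of all autosomal genes, 66 and 127 enzymes, 40 and 53 transporters, 22 and 102 immune genes and 58 and 78 regulators. With an absolute log2 above 1 they were 105 and 154, 17 and 40, 8 and 6, 6 and 22, and 6 and 9. Female-biased regulators numbered 41 with DESeq2, 39 without a filter on low counts and 44 in the joint fit of 48 livers, all of which tested more genes, and male-biased autosomal genes numbered 500 without the filter. With not uniquely aligned reads as a covariate, added after seeing the data, female-biased genes numbered 334 in all, 16 transporters, 38 immune genes and 8 regulators, and male-biased immune genes 6. Il1r1 was then at -0.00 and Cebpb at -0.13, so neither kept its male bias. That covariate nearly repeats the gender label, so these values cannot set a direction. In the livers at or above 30% of reads outside genes, 11 regulators were male-biased and 34 immune genes female-biased. Leaving out each liver in turn gave 300 to 339 male-biased and 587 to 676 female-biased autosomal genes, 29 to 32 and 65 to 70 enzymes, 13 to 15 and 21 to 27 transporters, 9 to 11 and 57 to 67 immune genes, and 18 to 22 and 24 to 31 regulators. Thinning every library to the depth of the shallowest gave 279 and 527. Of 104 named genes called, 57 were called under every alternative that gave a value for them. Under the stricter threshold of an absolute log2 above 1, 40 of the 104 lost their call. Low-level genes are limited by the 3-read floor, which was lower in the deeper male libraries.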

Other observations

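Of the 937 called autosomal genes, 661 belonged to none of the lists, and those given here were chosen after their values were seen. A1bg, a plasma glycoprotein gene, had 446 to 2839 CPM in female livers and 11 reads in all over the males. Its log2 (male/female) was -12.18 (SE 0.553, edgeR adjusted p = 2.64e-14), and the ranges did not overlap. Scp2, the sterol carrier protein of peroxisomes, had 4301 to 5764 CPM in males and 1852 to 2497 CPM in females, for a log2 (male/female) of 1.18 (SE 0.0542, edgeR adjusted p = 5.77e-18). Hao1, the glycolate oxidase, was male-biased at 1.05, and every male liver was above every female liver for both genes.

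Ccnd1, the cyclin of the G1 phase, had 21.3 to 47.97 CPM in males and 98.2 to 225 CPM in females, for a log2 (male/female) of -2.09 (SE 0.137, edgeR adjusted p = 3.11e-12). Ctsc, the lysosomal protease cathepsin C, had 72.8 to 117 CPM in males and 216 to 292 CPM in females. Tcn2, the carrier of vitamin B12 in plasma, was at -0.95 and the butyrylcholinesterase gene Bche at -0.97. In each of these 4 genes every female liver was above every male liver.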
